A study of Mus musculus with 57 samples.

Results

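The core circadian clock genes Clock, Arntl (also Bmal1), Per1, Per2, Per3, Cry1, Cry2, Nr1d1, Nr1d2 and Dbp were followed through the histone marks H3K4me3 and H3K27ac in brain cortex and gastrocnemius muscle of PSAPP mice. They were chosen by name, as the transcriptional loop of the clock and its best known output, and make up 10 of the 24963 autosomal genes with a curated RefSeq transcript. All 10 carried both marks at the transcription start site (TSS) in every library of both tissues, and none carried H3K27me3 there in any library. The tissues differed in how many reads the marks held and over how long a stretch. H3K27ac at Arntl and Cry2 was higher in cortex, while H3K27ac at Per2, Per3, Cry1 and Nr1d2 was higher in gastrocnemius, where the peaks of these 4 genes were also wider. These directions hold for the reads of whole peaks. Divided by peak width, H3K27ac of the 4 gastrocnemius genes lay towards cortex, as did the median of all genes (0.48 on the log2 scale). The reads of each peak were also spread evenly along it, and only the part within 1 kb of the TSS was taken. This is an estimate, since only counts of whole peaks are known. Arntl then kept its call towards cortex, and Per3 was called towards cortex in place of gastrocnemius. Cry2, Per2, Cry1 and Nr1d2 were not called.

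The clock of mammalian cells is a loop of transcription factors. CLOCK and ARNTL bind DNA as a pair at E-boxes and switch on the Per and Cry genes, whose proteins return to the nucleus and block the pair. In a second loop the nuclear receptors NR1D1 and NR1D2 (REV-ERB alpha and beta) repress Arntl, and in an output arm DBP binds D-boxes of further genes. Nearly every tissue runs such a clock, in muscle and in cortex alike, and food given at a fixed hour can set clocks outside the hypothalamus. H3K4me3 marks the start sites of active and poised genes, H3K27ac marks active promoters and enhancers, and H3K27me3 marks genes held silent by Polycomb complexes.

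PSAPP mice express a mutant human presenilin 1 and a mutant chimeric mouse and human amyloid precursor protein and are used as a model of Alzheimer's disease. Both groups were PSAPP mice, and no group without the transgenes was part of the comparison. All were killed at 13 months, after chow at will until 6 months and then a modified AIN-93 diet of 11.2 kcal per day in single housing, given about 1 h before lights out. Tissue was snap frozen after exsanguination under isoflurane. No source used here states the hour of death, so a phase of the clock cannot be given to any library. Each mark had 9 cortex and 10 gastrocnemius libraries, and 9 animals gave both tissues. Males and females were used in the study, and the labels do not say which library came from which sex.

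Reads inside peaks numbered about 9498580 to 18993200 per library for H3K4me3 in cortex and 9159250 to 14982700 in gastrocnemius. For H3K27ac they numbered about 3935240 to 21157600 and 15704400 to 27268200, with the lowest value in cortex replicate 9. The H3K4me3 peaks of muscle markers separated the tissues and those of brain markers did so in part. Ckm, Acta1, Mylpf, Tnnt3, Myh4 and Ttn, which encode proteins of the muscle fibre, had a TSS peak in 10 of 10 gastrocnemius libraries and in 0 to 2 of 9 cortex libraries. Of 13 markers of neurons, glia and microglia, Snap25, Gad1, Gfap, Mog and Cx3cr1 had one in 9 of 9 cortex and 0 of 10 gastrocnemius libraries, and P2ry12 in 8 and 0. Rbfox3 and Csf1r had one in 9 cortex libraries and in 3 and 4 gastrocnemius libraries, while Syt1, Slc17a7, Aqp4, Aldh1l1 and Mbp had one in every library of both tissues, with Aldh1l1 reads higher in gastrocnemius (log2 cortex minus gastrocnemius -0.85). Adipoq and Plin1, markers of fat cells, had none in either tissue. H3K27ac separated the markers less well. All 6 muscle markers had an H3K27ac peak at the TSS in 10 of 10 gastrocnemius libraries, but Acta1 and Mylpf also had one in 9 of 9 cortex libraries, Tnnt3 in 5, Ckm in 2 and Myh4 and Ttn in 0. The 13 brain markers had one in 9 of 9 cortex libraries, and of these 6 had one in 0 gastrocnemius libraries, Cx3cr1 in 2, Csf1r in 3, Gfap in 7 and Slc17a7, Aqp4, Aldh1l1 and Mbp in 10. Plin1 had one in 3 cortex and 6 gastrocnemius libraries. Both tissues are mixtures of cell types, so the share of cells carrying a mark and its amount per cell cannot be told apart, here and in all values that follow.

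The loop closes through short DNA elements, and the promoters of clock genes with a match to one are shown because the H3K4me3 and H3K27ac peaks below lie over them. The 250 bases before the TSS were searched on both strands for the E-box CACGTG, the E'-box CACGTT, the D-box (TTATGTAA or TTACGTAA), the ROR element bound by NR1D1 and NR1D2 (TAGGTCA or TGGGTCA) and the cAMP response element TGACGTCA. RefSeq promoters of build GRCm38.p6, the assembly called mm10 by the authors, were at hand for 9 of the 10 genes, all but Per2, and 5 of these held a match. Among 32851 promoters of the same length 6.02% held the E-box, 3.85% the E'-box, 0.931% the D-box, 5.38% the ROR element and 1.55% the cAMP response element. Matches are in capitals and positions count back from the TSS. Per1 (chr11:69098699-69098948, plus strand) had an E-box at -166 to -161. Per3 (chr4:151044666-151044915, minus strand) had 2 D-boxes, at -205 to -198 and -158 to -151. Cry1 (chr10:85185055-85185304, minus strand) had an E'-box at -79 to -74 and an E-box at -60 to -55. Cry2 (chr2:92434070-92434319, minus strand) had an E'-box at -166 to -161, and Nr1d1 (chr11:98775378-98775627, minus strand) had one at -28 to -23. The windows of Clock, Arntl, Nr1d2 and Dbp held none of these letters. A match is a string of letters and does not show that a factor was bound.
Per1: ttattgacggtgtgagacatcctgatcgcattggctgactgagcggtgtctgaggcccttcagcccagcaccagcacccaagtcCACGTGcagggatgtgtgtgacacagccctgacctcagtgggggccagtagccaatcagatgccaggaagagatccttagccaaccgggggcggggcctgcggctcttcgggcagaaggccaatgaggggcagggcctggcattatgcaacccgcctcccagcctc
Per3: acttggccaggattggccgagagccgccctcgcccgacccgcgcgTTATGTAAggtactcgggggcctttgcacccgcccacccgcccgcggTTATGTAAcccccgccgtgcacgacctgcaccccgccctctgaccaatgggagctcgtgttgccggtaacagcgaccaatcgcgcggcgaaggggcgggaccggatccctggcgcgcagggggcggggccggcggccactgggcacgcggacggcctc
Cry1: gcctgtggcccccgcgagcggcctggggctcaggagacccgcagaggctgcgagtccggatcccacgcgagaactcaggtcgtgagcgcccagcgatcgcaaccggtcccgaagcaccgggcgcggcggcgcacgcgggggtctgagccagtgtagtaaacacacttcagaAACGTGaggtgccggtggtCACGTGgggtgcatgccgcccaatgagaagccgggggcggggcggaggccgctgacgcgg
Cry2: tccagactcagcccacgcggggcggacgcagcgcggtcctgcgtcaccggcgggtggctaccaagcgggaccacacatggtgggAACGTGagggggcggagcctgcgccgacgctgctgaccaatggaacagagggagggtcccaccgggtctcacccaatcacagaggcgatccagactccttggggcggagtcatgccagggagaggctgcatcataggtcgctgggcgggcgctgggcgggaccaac
Nr1d1: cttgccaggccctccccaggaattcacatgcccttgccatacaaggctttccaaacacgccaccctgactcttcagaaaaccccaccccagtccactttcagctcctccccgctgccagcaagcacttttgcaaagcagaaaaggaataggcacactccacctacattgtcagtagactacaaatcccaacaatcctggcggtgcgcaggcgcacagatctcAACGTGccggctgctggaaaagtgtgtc

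The unit of most values is the whole read count of the peaks that overlap 1 kb either side of the TSS, per 1000000 reads in autosomal peaks of the library (RPM). Differences are log2 cortex minus gastrocnemius from edgeR's quasi-likelihood test after TMM scaling, with a standard error and a p adjusted by Benjamini-Hochberg over all genes tested, and an adjusted p under 0.1 is called. TMM scaling can shift a difference against the RPM printed beside it. Peaks are called stretches, so a wide peak holds more reads than a narrow one of the same height, and it can reach the TSS of a neighbouring gene. Peaks at Arntl, Per2, Cry1 and Nr1d2 held no other TSS in any library, while the Clock peaks held that of Gm7467 in every library of both marks, and the Per1, Per3, Cry2, Nr1d1 and Dbp peaks reached other genes in some or all libraries.

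A peak at the TSS in every library was common: 54.2% of the 24963 genes had one for H3K4me3 and 52.3% for H3K27ac, while 32.9% and 25.5% had none in any library. For H3K27me3 56.5% had no peak at the TSS in any library and 8.09% had one in every library. No clock gene differed between tissues in the number of libraries with a TSS peak, by Fisher's exact test, where 5.57% of genes were called for H3K4me3, 8.85% for H3K27ac and 8.02% for H3K27me3.

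For H3K4me3 reads at the TSS 9 of the 10 genes were called, against a background of 78.3% of 13532 genes tested (37.6% higher in cortex and 40.7% in gastrocnemius). Clock, Arntl, Per2 and Cry2 were higher in cortex, and Per1, Cry1, Nr1d1, Nr1d2 and Dbp in gastrocnemius. None reached a 2-fold difference, which 16.9% of genes did. For H3K27ac 9 were called against 72.4% of 13048 genes (34.0% higher in cortex and 38.4% in gastrocnemius). Clock, Arntl, Cry2 and Dbp were higher in cortex, and Per1, Per2, Per3, Cry1 and Nr1d2 in gastrocnemius. Cry2, Per2 and Per3 passed 2-fold, a size reached by 27.2% of genes, 11.2% towards cortex and 16.0% towards gastrocnemius. The median difference of the 10 genes was -0.06 for H3K4me3 and -0.22 for H3K27ac, beside -0.01 and -0.06 over all genes tested. In RPM the libraries of the tissues did not overlap for 4 of the 10 genes in each mark, where 38.7% of genes did not overlap for H3K4me3 and 30.0% for H3K27ac. The shares called among the clock genes were near those of all genes. When libraries were scaled to their reads in autosomal peaks, 3410 of 9548 H3K27ac calls over all genes were towards cortex in place of 4438 of 9448, the median of all genes moved from -0.06 to -0.21 and 8 clock genes were called, each in the direction given above.

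**Figure D1:**
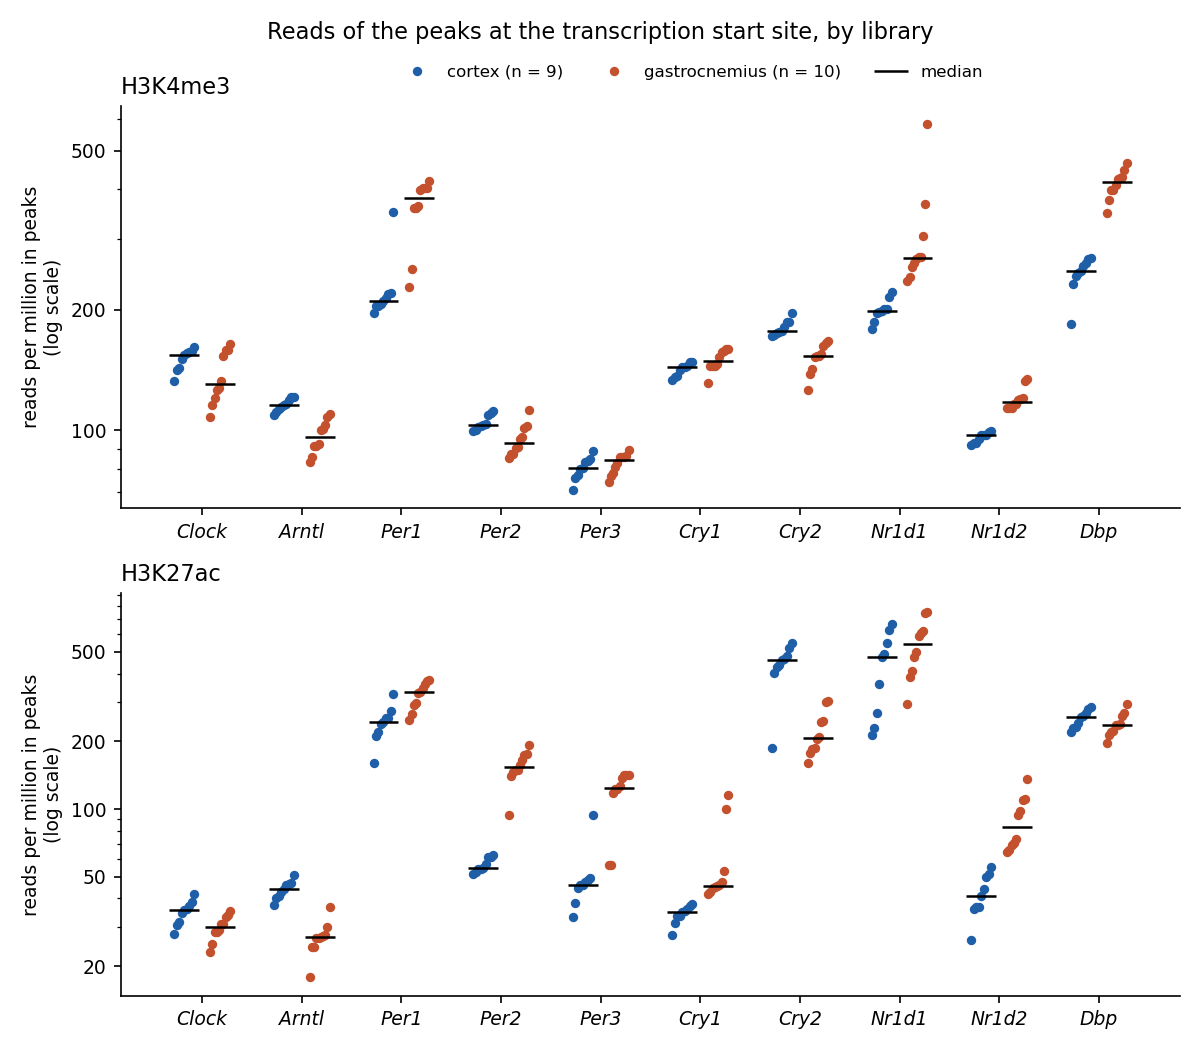
RPM in the peaks at the TSS of each clock gene (log axis) for H3K4me3 (top) and H3K27ac (bottom), 1 point per library for 9 cortex and 10 gastrocnemius libraries, with black bars at the medians. Libraries of the tissues stand apart for Cry2, Nr1d1, Nr1d2 and Dbp in H3K4me3 and for Arntl, Per2, Cry1 and Nr1d2 in H3K27ac.

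Clock and Arntl encode the activating pair. Clock lies at chr5:76209868-76304792 on the minus strand and spans 94.9 kb. Its H3K4me3 ran from 133 to 161 RPM in cortex with a median of 155, and from 108 to 164 in gastrocnemius with a median of 130. The tissues overlapped, and the difference was 0.14 ± 0.06 (SE, adjusted p = 0.0452 by edgeR). H3K27ac at Clock ran from 27.8 to 42.0 in cortex, median 35.7, and from 23.2 to 35.1 in gastrocnemius, median 29.9, which gave 0.37 ± 0.08 (adjusted p = 2.90e-04). The Clock values cover the peak shared with Gm7467.

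Arntl lies at chr7:113207465-113314126 on the plus strand and spans 107 kb. H3K4me3 ran from 109 to 121 RPM in cortex, median 116, and from 83.1 to 110 in gastrocnemius, median 96.04, a difference of 0.25 ± 0.04 (adjusted p = 2.08e-05). Its H3K27ac ran from 37.5 to 50.97 in cortex, median 43.9, and from 17.8 to 36.7 in gastrocnemius, median 26.8. Every cortex library lay above every gastrocnemius library, and the difference was 0.86 ± 0.10, or 1.82-fold (adjusted p = 1.28e-07). The H3K27ac peaks were of like width, 7.2 kb in cortex and 7.4 kb in gastrocnemius by median (0.04 ± 0.15, adjusted p = 0.807 by limma).

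The Period genes encode the PER repressors. H3K27ac reads at the TSS of all 3 were called higher in gastrocnemius, while their H3K4me3 was called in opposite directions at Per1 and Per2 and not called at Per3. Per1 lies at chr11:69098949-69109960 on the plus strand. Its H3K4me3 ran from 197 to 352 RPM in cortex, median 210, and from 228 to 419 in gastrocnemius, median 381. The cortex range reached into that of gastrocnemius through replicate 8 at 352, while the other cortex libraries went no higher than 221, and the difference was -0.68 ± 0.13 (adjusted p = 1.16e-04). H3K27ac at Per1 ran from 161 to 323 in cortex, median 244, and from 249 to 376 in gastrocnemius, median 331. This difference of -0.26 ± 0.12 (adjusted p = 0.0644) was no longer called without cortex replicate 9 (-0.20, adjusted p = 0.110). In all 10 gastrocnemius libraries the H3K27ac peak of Per1 also held the TSS of Vamp2.

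Per2 lies at chr1:91415982-91459328 (minus strand, 43.3 kb) and had the largest H3K27ac difference of the 10 genes at the TSS. H3K27ac ran from 51.5 to 62.3 RPM in cortex, median 54.7, and from 93.7 to 192 in gastrocnemius, median 154. The tissues stood apart, with a difference of -1.30 ± 0.11 or 2.46-fold (adjusted p = 2.04e-09). The peak spanned 8.4 to 14.8 kb in cortex, median 10.6 kb, and 16.8 to 43.8 kb in gastrocnemius, median 40.1 kb, so in most muscle libraries it covered a length near that of the gene. H3K4me3 at Per2 went slightly the other way, 99.3 to 111 in cortex with a median of 103 against 85.4 to 112 with a median of 93.1 (0.13 ± 0.05, adjusted p = 0.0212). The tissues overlapped. The H3K4me3 difference was not called (0.09) without the libraries whose deposited list has a code of S and digits in its name. This code is called a run number below, though the labels do not say what it means.

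Per3 lies at chr4:151003655-151044665 (minus strand, 41.0 kb). H3K27ac ran from 33.1 to 94.3 RPM in cortex, median 45.7, and from 56.2 to 142 in gastrocnemius, median 125. Cortex replicate 1 at 94.3 alone lay inside the gastrocnemius range, the next cortex library being at 49.2, and the difference was -1.09 ± 0.20 or 2.12-fold (adjusted p = 1.05e-04). H3K4me3 was 70.8 to 88.6 in cortex, median 80.7, and 74.3 to 89.1 in gastrocnemius, median 84.2, with a difference of -0.04 and a 95% interval of -0.13 to 0.04 (adjusted p = 0.372). Per3 thus had a called difference in H3K27ac and not in H3K4me3, and the difference between the marks was not tested.

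The cryptochromes are the partners of the PER proteins in repression, and the H3K27ac of the pair went in opposite directions. Cry1 lies at chr10:85131700-85185054 (minus strand, 53.4 kb). Its H3K27ac ran from 27.4 to 37.6 RPM in cortex, median 34.7, and from 41.9 to 116 in gastrocnemius, median 45.5. The tissues did not overlap, and the difference was -0.63 ± 0.19 (adjusted p = 0.00671). H3K4me3 at Cry1 differed little, 133 to 148 in cortex with a median of 144 and 131 to 160 in gastrocnemius with a median of 149 (-0.08 ± 0.03, adjusted p = 0.0148).

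Cry2 lies at chr2:92403646-92434069 (minus strand, 30.4 kb). H3K27ac ran from 187 to 549 RPM in cortex, median 462, and from 161 to 302 in gastrocnemius, median 208. Cortex replicate 9, the shallowest library, held the 187 and the next cortex library held 403. The difference was 1.13 ± 0.17 or 2.19-fold (adjusted p = 9.42e-06), and 1.23 without that library. H3K4me3 ran from 172 to 196 in cortex, median 177, and from 126 to 168 in gastrocnemius, median 154, without overlap (0.24 ± 0.05, adjusted p = 3.47e-04). The H3K27ac peak of Cry2 was wide, 20.8 to 93.0 kb in cortex with a median of 67.4 kb and 18.8 to 77.4 kb in gastrocnemius with a median of 40.8 kb, and held up to 7 other start sites, among them those of Mapk8ip1, Pex16, Slc35c1 and Large2.

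Nr1d1 and Nr1d2 encode the REV-ERB receptors that repress Arntl. Nr1d1 lies at chr11:98767932-98775377 (minus strand, 7.4 kb). H3K4me3 ran from 179 to 222 RPM in cortex, median 199, and from 236 to 582 in gastrocnemius, median 270. The tissues did not overlap, gastrocnemius replicate 6 stood at 582 above the next at 368, and the difference was -0.63 ± 0.15 (adjusted p = 7.49e-04). H3K27ac ran from 213 to 667 in cortex, median 477, and from 293 to 756 in gastrocnemius, median 543. The spread within each tissue was larger than the difference of -0.18, whose 95% interval was -0.66 to 0.30 (adjusted p = 0.495). The H3K27ac peaks spanned 31.2 to 101 kb and 29.4 to 153 kb and reached Thra, Med24, Msl1 and Casc3 in some libraries.

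Nr1d2 lies at chr14:18204056-18239106 (minus strand, 35.1 kb), and its libraries stood apart by tissue in both marks. H3K4me3 ran from 91.8 to 99.4 RPM in cortex, median 97.4, and from 114 to 135 in gastrocnemius, median 118 (-0.33 ± 0.04, adjusted p = 7.73e-07). H3K27ac ran from 26.1 to 55.1 in cortex, median 41.0, and from 64.2 to 136 in gastrocnemius, median 83.6 (-0.95 ± 0.16, adjusted p = 3.44e-05). All 9 animals with both tissues had more reads of each mark in the whole peaks in gastrocnemius, while H3K4me3 per kb of peak was higher in cortex in all 9. No other TSS lay in these peaks.

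Dbp encodes a D-box activator whose transcription is known for large daily swings. It lies at chr7:45705247-45710203 (plus strand, 5.0 kb). H3K4me3 ran from 185 to 269 RPM in cortex, median 250, and from 349 to 465.8 in gastrocnemius, median 417. The tissues stood apart with a difference of -0.76 ± 0.07 or 1.69-fold (adjusted p = 4.97e-09). The H3K4me3 peak covered different start sites in each tissue, since it held those of Rpl18 and Sphk2 in every gastrocnemius library and no other TSS than that of Car11 in cortex. H3K27ac ran from 220 to 286 in cortex, median 256, and from 197 to 293 in gastrocnemius, median 236, overlapping, with a difference of 0.23 ± 0.09 (adjusted p = 0.0332) that fell to 0.08 and was not called when libraries were scaled to their reads in autosomal peaks. The H3K27ac peak held the TSS of Car11, Rpl18 and Sphk2 in every library, and over the 19 libraries these 3 genes had the level most like that of Dbp, each with r = 1, since they share its peak.

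Of the 18 called read differences in both marks, 11 came with a called width difference in the same direction, 3 with one in the opposite direction (Per2 and Cry2 in H3K4me3 and Clock in H3K27ac) and 4 with none. Of 20043 called read differences over all genes and both marks 63.3% came with a called width difference in the same direction and 10.9% with one in the opposite direction, shares near those of the clock genes. H3K4me3 peaks of 7 clock genes were wider in gastrocnemius and none in cortex, where 77.7% of all genes were called, 67.0% wider in gastrocnemius and 10.7% in cortex, and the median over all genes was -0.41 (limma on log2 width). The largest was at Nr1d2, 3.0 to 4.4 kb in cortex with a median of 3.6 kb and 7.4 to 9.4 kb in gastrocnemius with a median of 9.0 kb (-1.35 ± 0.09, adjusted p = 3.07e-11). Nr1d1 (-1.01), Dbp (-1.001), Per1 (-0.92), Cry2 (-0.73), Cry1 (-0.32) and Per2 (-0.18) were the others called. Tissues did not overlap for Nr1d1, Nr1d2 and Dbp, 3 of 10 genes, beside 13.4% of all genes. Clock (-0.19), Arntl (0.14) and Per3 (-0.07) were not called. Per2 lost its call in 7 of the 19 fits that left out 1 library each, at -0.17 to -0.15 (without cortex replicate 4, 5, 7 or 8 or gastrocnemius replicate 1, 4 or 6), and Clock gained one without gastrocnemius replicate 8 or 10 (-0.23).

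H3K27ac peaks of 6 clock genes were wider in gastrocnemius, where 65.1% of all genes were called and 55.3% were wider in gastrocnemius, and the median over all genes was -0.52. They were Per2 (-1.75), Per3 (-1.72), Nr1d2 (-1.44), Cry1 (-1.07), Per1 (-0.53) and Clock (-0.47). At Per3 the peak spanned 5.0 to 22.4 kb in cortex, median 9.4 kb, and 12.8 to 45.6 kb in gastrocnemius, median 34.0 kb. At Nr1d2 it spanned 3.4 to 9.6 kb and 10.2 to 26.8 kb, medians 4.8 and 12 kb. Cry2 alone was called wider in cortex (0.71 ± 0.30, adjusted p = 0.0464), a call 9.76% of genes had. Arntl (0.04), Nr1d1 (-0.37) and Dbp (0.04) were not called, though with the animal as a block Nr1d1 was (-0.43, adjusted p = 0.0970). Tissues did not overlap for Per2 and Nr1d2, 2 of 10 genes, beside 13.5% of all genes.

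**Figure D2:**
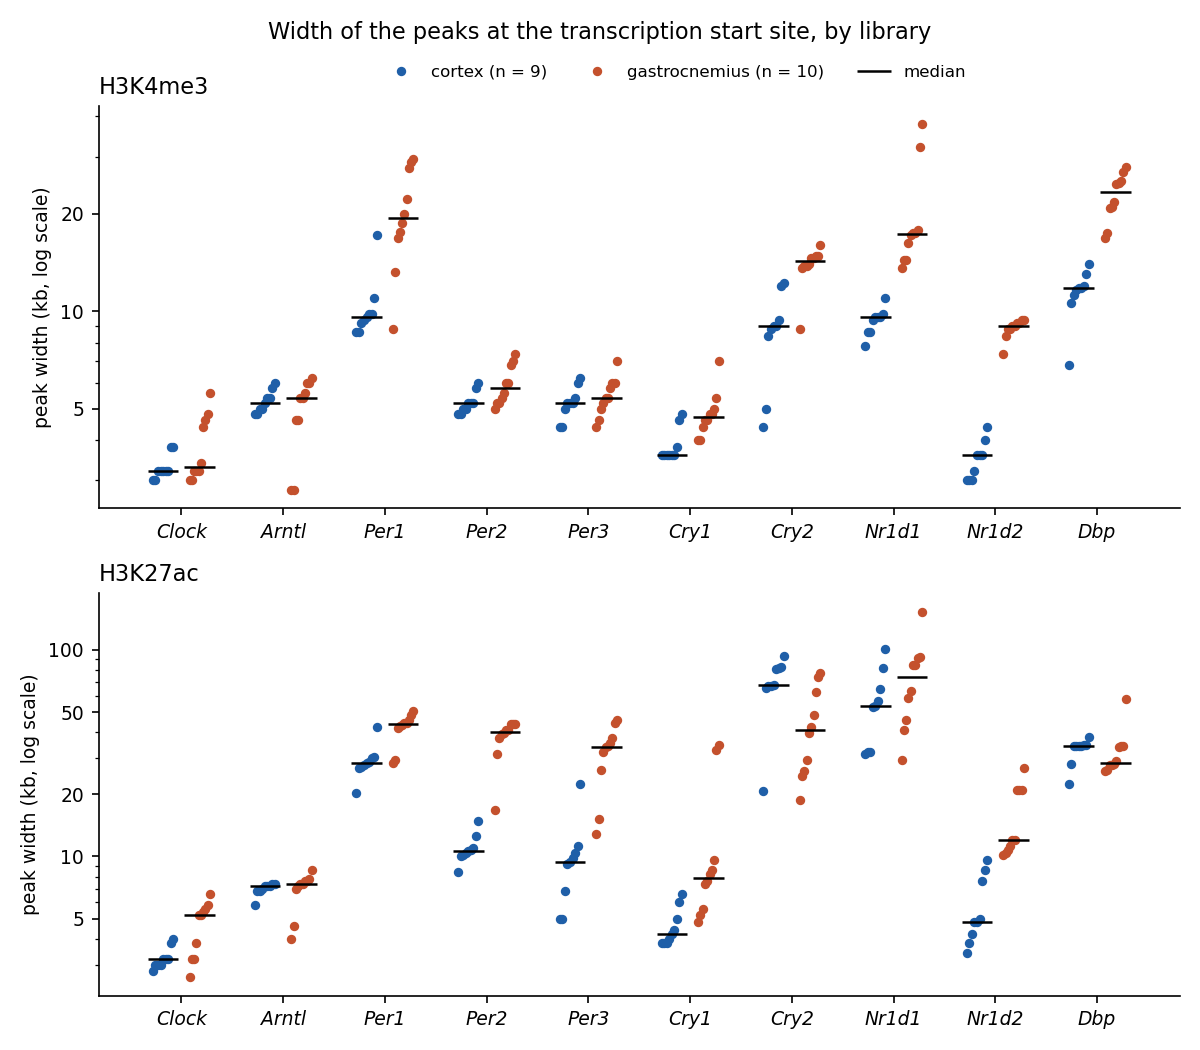
Width in kb (log axis) of the peaks at the TSS of each clock gene for H3K4me3 (top) and H3K27ac (bottom), 1 point per library for 9 cortex and 10 gastrocnemius libraries, with black bars at the medians. Every gastrocnemius library lies above every cortex library for Nr1d1, Nr1d2 and Dbp in H3K4me3 and for Per2 and Nr1d2 in H3K27ac.

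Divided by its width, the mark was denser in cortex. Reads per kb of peak were higher in cortex for 8 clock genes in H3K4me3 (all but Arntl and Per3) and for 9 in H3K27ac (all but Nr1d1), and for none in gastrocnemius, where 78.3% of all genes were called in H3K4me3 (70.2% towards cortex and 8.03% towards gastrocnemius) and 80.1% in H3K27ac (76.4% and 3.65%), and the medians over all genes were 0.41 and 0.48. H3K4me3 per kb was 1.04 ± 0.14 higher at Cry2 and 1.03 ± 0.10 at Nr1d2 on the log2 scale, and H3K27ac per kb was 0.82 ± 0.11 higher at Arntl and 0.79 ± 0.16 at Clock. The medians show that this scale moved all genes towards cortex, so a change of sign is not particular to a gene. The sign of the read difference changed at Per1, Cry1, Nr1d1, Nr1d2 and Dbp in H3K4me3. It changed at Per1, Per2, Per3, Cry1 and Nr1d2 in H3K27ac. Of these, Per1, Cry1 and Dbp in H3K4me3 and Per1, Per2 and Cry1 in H3K27ac still lay below the median of all genes. Arntl, Clock, Cry2 and Dbp had a cortex call in H3K27ac on both scales. Dbp was at 0.18 per kb (adjusted p = 0.0963 by edgeR), below the median of 0.48 over all genes. When the reads of each peak were shared evenly along it and only the part within 1 kb of the TSS was counted, H3K27ac remained higher in cortex at Arntl (0.39, adjusted p = 6.33e-04) and Clock (0.39, adjusted p = 0.0179), while Cry2 was at -0.060, Per2 at 0.042, Cry1 at 0.050 and Nr1d2 at 0.088, none of these 4 called. In the same count Per3 was higher in cortex (0.24, adjusted p = 0.0707), and Nr1d1 (-0.30, adjusted p = 0.00766), which was not called by whole peaks, Dbp (-0.25, adjusted p = 0.0120) and Per1 (-0.17, adjusted p = 0.0903) were higher in gastrocnemius. These 6 called genes stand beside 49.0% of all genes called. H3K4me3 counted this way was called for 3 genes, Cry2 (0.71), Nr1d2 (0.68) and Per3 (-0.31), beside 52.9% of all genes.

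**Figure D3:**
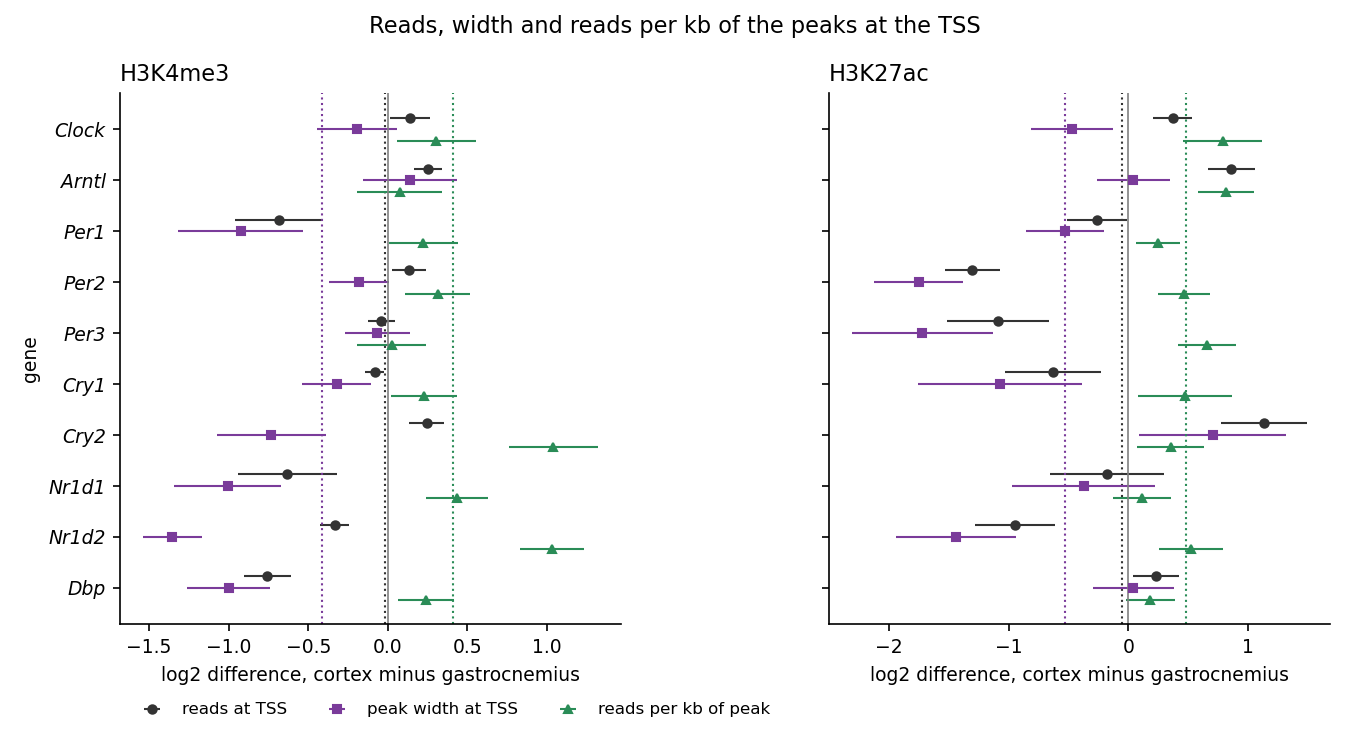
Log2 difference, cortex minus gastrocnemius, in reads (black circles), width (purple squares) and reads per kb (green triangles) of the TSS peaks of the 10 clock genes, with 95% intervals as bars and dotted lines at the medians of all genes tested (H3K4me3 left, H3K27ac right). For Nr1d2 in H3K4me3 reads lie at -0.33, width at -1.35 and reads per kb at 1.03.

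Gene bodies run from 1 kb past the TSS to the far end of the gene. They include the part of a TSS peak that reaches there, its reads shared evenly along it. Within them, H3K27ac at Cry1 showed the largest difference of the 10 genes. It ran from 11.8 to 29.2 RPM in cortex, median 14.97, and from 78.2 to 111 in gastrocnemius, median 88.6. The tissues stood far apart (-2.30 ± 0.15, 4.92-fold, adjusted p = 1.52e-11), and the share of the body under a peak was 5.45% in cortex and 58.1% in gastrocnemius by median. In all 7 genes were called for body H3K27ac, where 72.8% of 11775 genes were (37.5% higher in cortex and 35.3% in gastrocnemius). Nr1d2 (-1.10 ± 0.10, adjusted p = 5.58e-09), Per3 (-0.95 ± 0.10, adjusted p = 2.78e-08) and Per2 (-0.37 ± 0.05, adjusted p = 3.23e-06) were higher in gastrocnemius like Cry1. Arntl was higher in cortex (0.95 ± 0.10, adjusted p = 3.08e-08), at 231 to 318 RPM with a median of 264 against 99.9 to 178 with a median of 150, and its covered share was 85.0% against 60.6%. Cry2 was also higher in cortex (0.47 ± 0.09, adjusted p = 9.49e-05). Per1 was at the limit (0.15 ± 0.08, adjusted p = 0.0980) and lost the call in 11 of the 19 fits that left out 1 library, at 0.12 to 0.16. Clock (0.00), Nr1d1 (0.02) and Dbp (0.08) were not called. The libraries of the tissues did not overlap for 5 of the 10 genes, Arntl, Per2, Per3, Cry1 and Nr1d2, where 33.5% of all genes did not.

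Body H3K4me3 was called for 5 genes, where 63.7% of 10240 were (30.9% higher in cortex and 32.8% in gastrocnemius), and only Nr1d2 did not overlap between tissues, where 26.0% of genes did not. Nr1d2 was the largest, 20.2 to 46.2 RPM in cortex with a median of 35.9 and 73.5 to 124 in gastrocnemius with a median of 82.1, without overlap (-1.13 ± 0.14, adjusted p = 5.36e-07). Per1 (-0.43) was also higher in gastrocnemius, and Nr1d1 (0.53), Dbp (0.32) and Cry2 (0.29) were higher in cortex. At Nr1d1, 7.4 kb long, the TSS peak ended 7.18 kb past the TSS in cortex and 13.7 kb in gastrocnemius by median. At Dbp, 5 kb long, it ended at 4.75 and 16.4 kb. The body values of both genes thus restate the density of the TSS peak and are no separate measurement. Cry2 (0.11) and Dbp (0.14) lost their calls and Per2 (-0.23) gained one towards gastrocnemius when libraries were scaled to reads in autosomal peaks, under which 2481 of 6850 calls over all genes were towards cortex in place of 3162 of 6522. Clock (0.28), Arntl (0.34), Per2 (-0.04), Per3 (0.15) and Cry1 (0.01) were not called. With the animal as a block 6 genes were called, Clock among them (0.54, adjusted p = 0.0055), and Clock was also called without gastrocnemius replicate 5 (0.51) and Per3 without gastrocnemius replicate 4 (0.18).

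Windows of 200 bp called in every library of 1 tissue and in no library of the other placed these differences along the genes. Over all windows with a peak in any library 3.30% of H3K4me3 and 3.62% of H3K27ac windows were of this kind for gastrocnemius, and 2.10% and 3.37% for cortex. The longest stretch among the clock genes was 9.2 kb of H3K27ac at Cry1, chr10:85166601-85175800, 9.25 to 18.5 kb past the TSS and inside intron 1 of 13 exons. A further 0.4 kb lay in the same intron. In Nr1d2, a gastrocnemius stretch of 1.0 kb of H3K27ac and one of 0.8 kb of H3K4me3 both lay in intron 1. In Per2, 1.2 kb of H3K4me3 (chr1:91445601-91446800) covered the end of intron 4 and exon 5 and was called in 10 of 10 gastrocnemius and 0 of 9 cortex libraries. The cortex-only kind occurred once within 10 kb of a clock gene, 1.0 kb of H3K4me3 downstream of Cry2 and inside Mapk8ip1.

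The middle 300 bases of the Cry1 stretch, chr10:85171051-85171350 on the minus strand in build GRCm38.p6, are shown as the sequence that carried H3K27ac in all gastrocnemius and no cortex libraries. They held 43.3% G and C and no match to the 5 motifs named above.
Cry1 intron 1: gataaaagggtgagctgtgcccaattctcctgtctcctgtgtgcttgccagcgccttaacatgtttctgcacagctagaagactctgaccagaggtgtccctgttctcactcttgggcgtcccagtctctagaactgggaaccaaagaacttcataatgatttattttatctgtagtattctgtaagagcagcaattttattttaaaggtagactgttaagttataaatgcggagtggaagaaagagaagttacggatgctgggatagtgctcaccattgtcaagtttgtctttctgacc

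**Figure D4:**
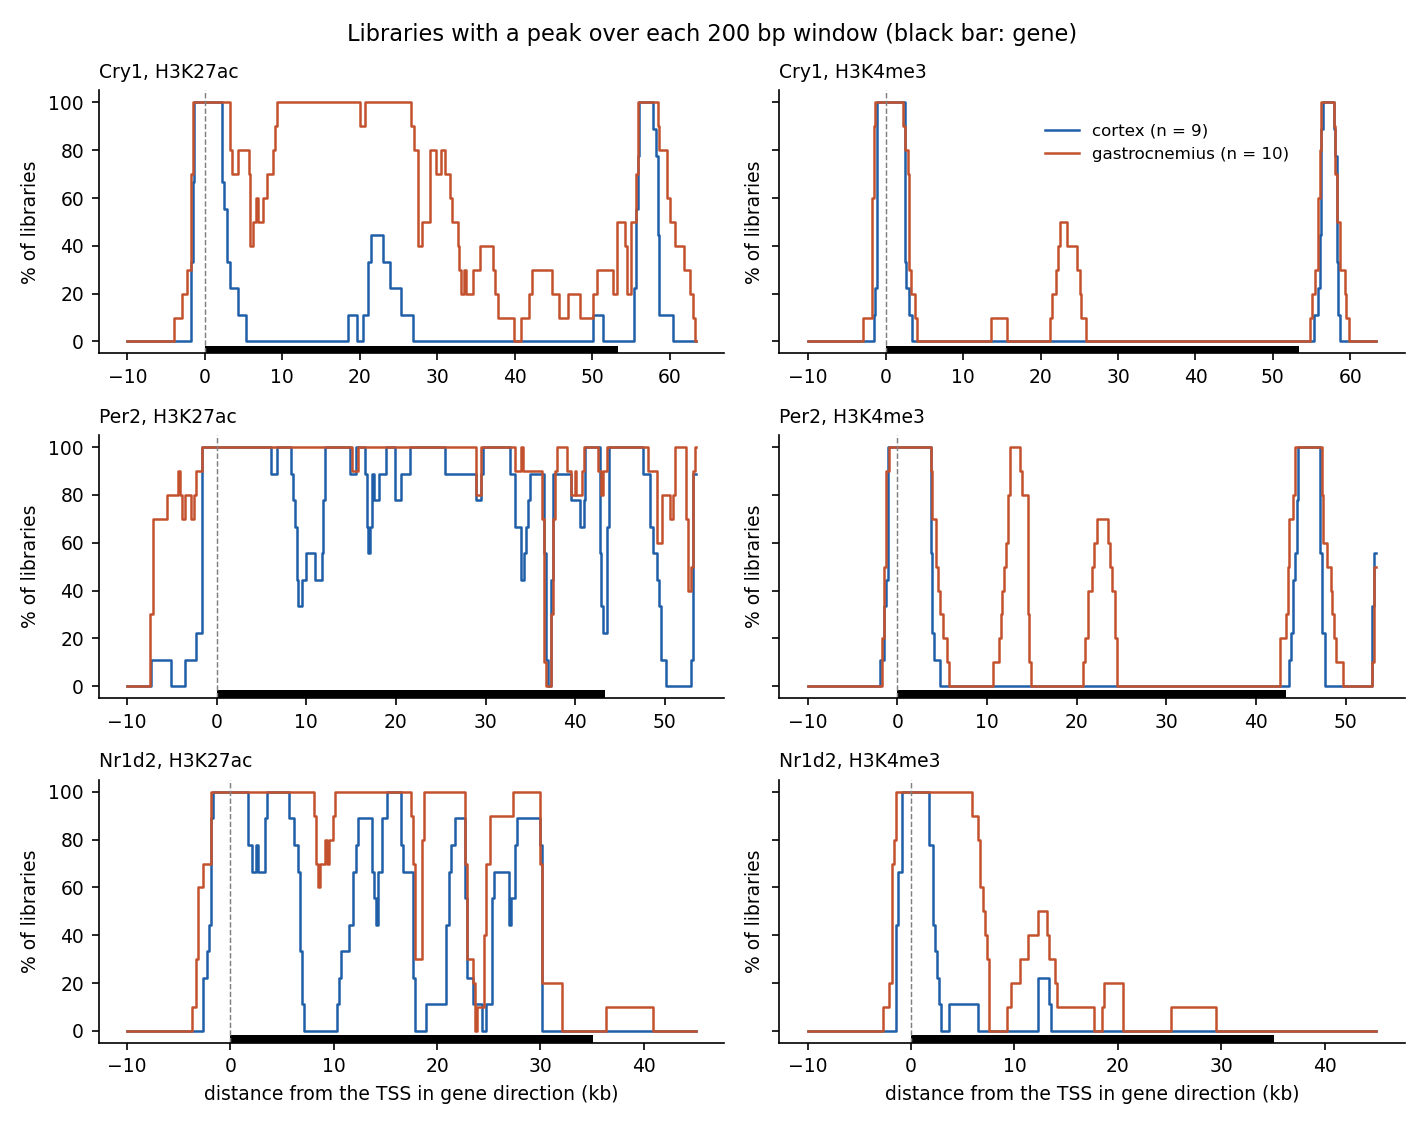
Percent of libraries with a peak over each 200 bp window, by distance from the TSS in kb along the gene, for Cry1, Per2 and Nr1d2 (rows) in H3K27ac (left) and H3K4me3 (right), with cortex (n = 9) in blue, gastrocnemius (n = 10) in orange and the gene as a black bar. Over the 9.2 kb stretch in Cry1 intron 1 the gastrocnemius line stays at 100% and the cortex line at 0%.

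Sites were peaks of both tissues merged and found in at least 3 libraries of a tissue. A site that takes in a start site marked in every library could not be called. Of the 24 H3K4me3 sites in or within 10 kb of the clock genes 6 were called by Fisher's exact test, where 33.2% of all sites were. All 6 had a peak in gastrocnemius and in 0 of 9 cortex libraries. The share of all called sites that went this way was not counted. Gastrocnemius lists held 21309 to 29749 H3K4me3 peaks and cortex lists 19082 to 24747. A site in Arntl intron 2 (chr7:113240201-113243400) was found in 9 of 10 gastrocnemius libraries (adjusted p = 8.25e-04), and others in Arntl introns 1 and 2 in 7 and in 5. In Per2 a site over introns 4 to 6 was found in 10 of 10 (adjusted p = 1.11e-04) and one over introns 8 to 11 in 7, and a site in Cry1 intron 1 was found in 5. A peak in every library of 1 tissue and none of the other was found at 1 of the 24, the Per2 site over introns 4 to 6, beside 9.76% of all sites. None of the 6 was called once the 25% lowest-scoring peaks of each library were left out.

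Of 20 H3K27ac sites 3 were called, where 47.6% of all sites were, and 0 of the 20 had a peak in every library of 1 tissue alone, where 12.2% did. Merging joined stretches to start sites marked in every library, as in sites of 311.6 kb at Nr1d1, 206.4 kb at Per1 and 43.8 kb at Cry1. Such sites could not be called, and the 9.2 kb gastrocnemius stretch of Cry1 lies inside the last of them. The counts of called sites therefore do not show how many tissue-restricted stretches these genes hold. In Clock, a site over introns 9 to 11 was found in 5 of 9 cortex and 0 of 10 gastrocnemius libraries (adjusted p = 0.0276) and a site in intron 2 in 5 gastrocnemius and 0 cortex libraries (adjusted p = 0.0683). Downstream of Arntl a site inside Btbd10 was found in 8 cortex and 0 gastrocnemius libraries (adjusted p = 5.91e-04).

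H3K27me3, the silencing mark, was absent from the start sites and lay in or within 10 kb of 6 of the genes. Of 7 sites 4 were called, where 38.8% of all sites were. Without the 25% lowest-scoring peaks 2 were called. With sites from at least 2 libraries, or with peaks over at least 50% of a site, 3 were called. Upstream of Per2, chr1:91462001-91466800 at -7.47 to -2.67 kb carried it in 7 of 9 cortex and 0 of 10 gastrocnemius libraries (adjusted p = 0.00482). Upstream of Dbp, a site inside Car11 carried it in 8 of 10 gastrocnemius and 0 cortex libraries (adjusted p = 0.00482). Downstream of Cry2, 15.8 kb over Mapk8ip1 carried it in 10 of 10 gastrocnemius and 0 cortex libraries (adjusted p = 2.09e-04), and the cortex-only H3K4me3 stretch lay inside it. It was the 1 site of the 7 with a peak in every library of 1 tissue and none of the other, beside 5.18% of all sites. Upstream of Clock a site inside Pdcl2 carried it in 5 gastrocnemius and 0 cortex libraries (adjusted p = 0.0837). The 3 sites that were not called lay upstream of Cry1 (9 of 9 cortex and 6 of 10 gastrocnemius libraries), upstream of Cry2 (0 and 4) and downstream of Per3 (0 and 3).

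The spread between animals differed among the clock genes. It is the SD of log2 reads at the TSS over the libraries of a tissue, given with its percentile among all genes tested. In H3K4me3 Nr1d1 in gastrocnemius had an SD of 0.42 (percentile 93.7) and Per1 one of 0.26 in cortex (91.8) and 0.34 in gastrocnemius (90.3), beside medians of 0.08 and 0.12 over all genes. Single libraries carried part of this: without gastrocnemius replicate 6 Nr1d1 was at 0.22 (80.0), and without cortex replicate 8 Per1 was at 0.061 (33.3). Nr1d2 in cortex at 0.04 (8.02) and Cry1 in gastrocnemius at 0.06 (10.3) varied little. In H3K27ac Nr1d1 had an SD of 0.60 in cortex (88.6) and Cry2 one of 0.47 (82.6), while Per2 in cortex had 0.08 (2.77) and Dbp had 0.12 in cortex (17.1) and 0.17 in gastrocnemius (20.6). Cry2 was at 0.13 (30.1) without cortex replicate 9, the shallowest library. Some values were lower with only the evenly spread share of reads inside 1 kb of the TSS. The cortex values were then 0.18 for Nr1d1 H3K27ac (17.2), 0.19 for Cry2 H3K27ac (19.5) and 0.12 for Per1 H3K4me3 (12.5). Nr1d1 H3K4me3 in gastrocnemius was then at 0.22 (21.3). Others rose in percentile inside 1 kb, with Cry2 H3K4me3 in cortex going from 0.060 (29.8) to 0.45 (98.0), Clock H3K27ac in gastrocnemius from 0.19 (24.9) to 0.48 (90.0) and Cry1 H3K27ac in gastrocnemius from 0.54 (78.3) to 0.58 (97.0). The Dbp values in H3K27ac come from the peak shared with Car11, Rpl18 and Sphk2, and in H3K4me3 Dbp had an SD of 0.16 in cortex (81.9) and 0.15 in gastrocnemius (61.8), the former at 0.070 (41.4) without cortex replicate 5.

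Whether the genes varied together from animal to animal was described for H3K27ac with 28 relations, 18 between Dbp and each other gene within a tissue and 10 between the tissues of the same animal for each gene. Dbp and Nr1d2 had r = 0.82 and rho = 0.79 over 10 gastrocnemius libraries (permutation p = 0.00373 for r and 0.00852 for rho, adjusted 0.0808 and 0.239), and r = 0.71 without the 2 libraries farthest from the median. In cortex r was 0.67 and rho 0.72 over 9 libraries (exact permutation p = 0.0504 and 0.0369, adjusted 0.353 and 0.344). With libraries scaled to reads in autosomal peaks the cortex r was 0.84 and was called (exact permutation p adjusted 0.0885), which made 3 relations called in place of 2. Dbp and Per2 in cortex had r = -0.69 and rho = -0.67 (exact permutation p = 0.0474 and 0.0589, adjusted 0.353 and 0.412). Nr1d1 had r = 0.82 and rho = 0.78 between the tissues of 9 animals (exact permutation p = 0.00577 and 0.0172, adjusted 0.0808 and 0.241), and r = 0.77 without the 2 farthest. As high a correlation with Dbp in gastrocnemius was found for 0.460% of 13047 genes, and as high a correlation between tissues for 0.659% of 13048 genes. With only the evenly spread share of reads inside 1 kb of the TSS the values of r fell to 0.04 and 0.09. Without the libraries with a run number they were 0.80 and 0.78 and no longer called. The 26 relations that were not called had an adjusted p for r above 0.35.

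Other genes of the clock gave a wider range of differences. Of 23 further clock genes, which include regulators of PER stability and other D-box and ROR factors, 22 were tested for H3K4me3 and 21 for H3K27ac, and Arntl2 had no TSS peak in either mark. In H3K4me3 8 were higher in cortex, 9 in gastrocnemius and 5 were not called, with a median of -0.02, beside 37.6% and 40.7% of all genes. Rorb, a ROR activator of Arntl, was higher in cortex (2.14 ± 0.10), while the deubiquitinase Usp2 (-2.59 ± 0.31) was higher in gastrocnemius. In H3K27ac 5 were higher in cortex and 14 in gastrocnemius, with 2 not called and a median of -0.44 beside -0.06 over all genes, of which 34.0% were higher in cortex and 38.4% in gastrocnemius. Npas2, which can stand in for CLOCK (1.40 ± 0.10), and Hlf, a D-box activator (1.21 ± 0.29), were higher in cortex. Nampt, an enzyme of NAD synthesis (-1.77 ± 0.11), Tef, a D-box activator (-1.67 ± 0.22), and Csnk1d, a kinase of PER proteins (-1.56 ± 0.25), were higher in gastrocnemius. The Rorb TSS had an H3K27ac peak in 9 of 9 cortex and 2 of 10 gastrocnemius libraries (adjusted p = 0.00992 by Fisher's exact test).

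**Figure D5:**
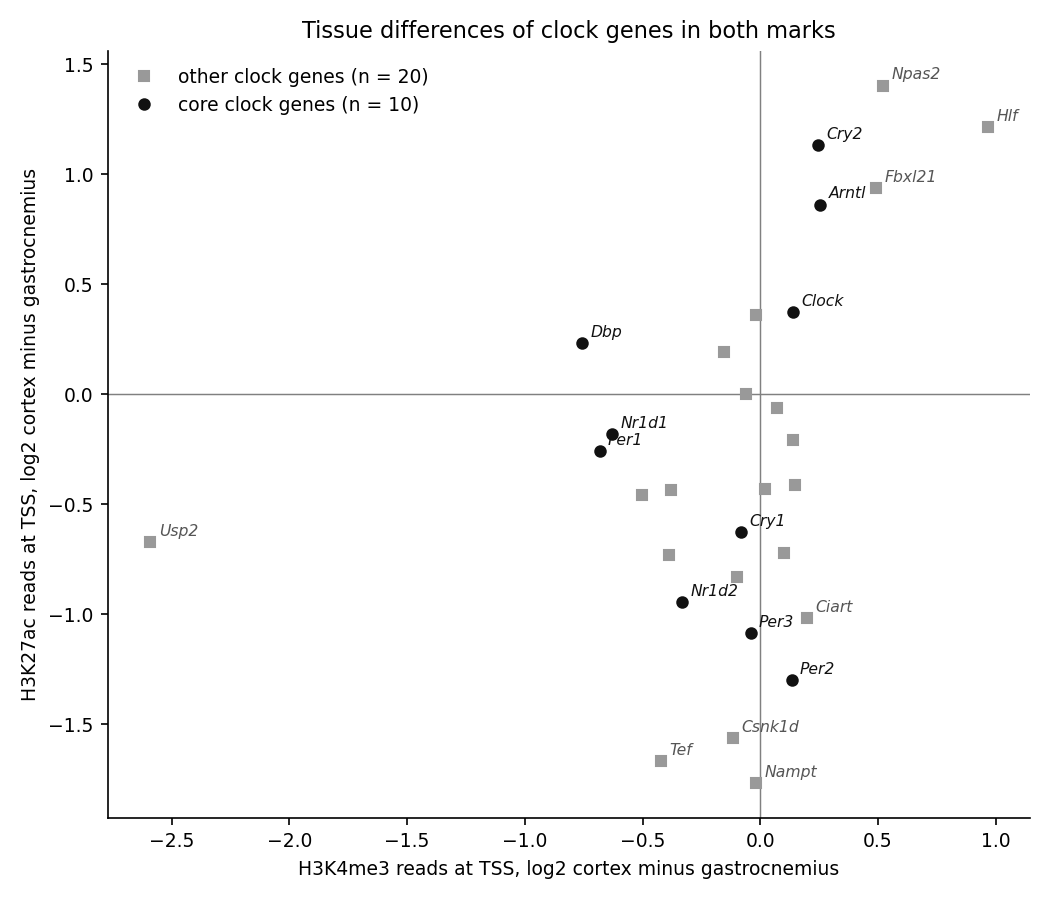
Log2 difference, cortex minus gastrocnemius, in H3K4me3 reads at the TSS (x axis) against H3K27ac reads at the TSS (y axis) for the 10 core clock genes (black circles) and 20 of the 21 other clock genes tested in both marks (grey squares). Cry2, Arntl and Clock lie above 0 in both marks, Dbp lies at -0.76 in H3K4me3 and 0.23 in H3K27ac, and Per2 lies at 0.13 and -1.30.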

How the data were processed

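ChIP-seq peak lists of H3K4me3, H3K27ac and H3K27me3 from 57 libraries were used. Per the study's methods the authors aligned paired 51-base reads to mm10 with BWA, removed duplicates and poorly mapped reads with SAMtools and called peaks per library with epic2 (200 bp windows, FDR below 0.05). The deposited values are the read count of each peak and the score the authors' caller gave it; the score served only to leave out weak peaks. Only reads inside called peaks are known, and weak stretches are absent, so total depth is unknown and a wide peak gathers more reads.

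Genes came from RefSeq GRCm38.p6, 1 transcript per gene. Reads and widths of peaks within 1 kb of each TSS, and reads shared by overlap with the gene body, were tested over all autosomal genes with values in every library, by edgeR 4.0.16 (quasi-likelihood, TMM) and limma 3.58.1 (trend) in R 4.3.3, with Benjamini-Hochberg adjustment at 0.1. DESeq2 1.42.0 was an alternative. Fisher's exact test (two-sided) compared sites and peak presence, and correlations were tested by exact permutation or 100000 permutations, two-sided. The median biological coefficient of variation was 7.72% for H3K4me3 and 20.8% for H3K27ac. The tests were tried on simulated counts. No library pair was a duplicate.

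Groups came from the labels. Animal codes in the names of the deposited lists tie 9 cortex to 9 gastrocnemius libraries of the same animals, but deviations of such pairs from their group means hardly correlated (r of -0.06 to 0.07 for H3K4me3 and -0.02 to 0.08 for H3K27ac). The main fits are unblocked, and the blocked value is printed where it changes a call. p-values and the intervals of differences both measure the spread between these animals. Genes were named by list, with a size limit for the further clock genes. Named were the 10 clock genes, genes out of 23 further clock genes with at least a 2-fold difference, and the 3 genes most like Dbp. Of the further clock genes the 4 largest per mark were to be named, and Hlf was named in H3K27ac beyond them. A result that this rule names is not reported here. The members and lists were chosen with earlier results of these data known. Sex was not modelled, as the labels do not give it, and X-linked genes were left out.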

Additional observations from a re-analysis of the deposited data

Results flagged for a closer look

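For each clock gene, mark and tissue, the reads (RPM, per 1000000 reads in autosomal peaks) and width at the TSS and the RPM of the gene body were searched for a highest or lowest library that lay far from the rest, by Dixon's criterion at 95%. Of 120 groups of values 21 held one, where chance gives about 1 in 20, and values of 1 gene within 1 library are not independent. No cause was tested.

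In cortex, replicate 8 had the highest Per1 H3K4me3 at 352 RPM and 17.2 kb. Replicate 1 had the highest Per3 H3K27ac at 94.3 and 22.4 kb, and replicate 2 had a Per1 H3K27ac peak of 42.4 kb and the narrowest Arntl H3K27ac peak at 5.8 kb. Replicate 5 had the lowest Dbp H3K4me3 at 185 and 6.8 kb. Replicate 9, the shallowest H3K27ac library, had the lowest Cry2 H3K27ac at 187 and 20.8 kb and the highest H3K27ac in the Dbp body at 40.8.

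In gastrocnemius, replicate 6 held 4 such values, with Nr1d1 H3K4me3 at 582 RPM, a Cry1 H3K4me3 peak of 7.0 kb, Nr1d2 body H3K4me3 at 124 and a Dbp H3K27ac peak of 57.8 kb, each the highest of the 10 libraries. Replicate 8 had the lowest Per2 H3K27ac at 93.7 and 16.8 kb. Replicate 5 had the highest H3K4me3 in the Clock body at 96.1, replicate 4 the widest Nr1d1 H3K27ac peak at 153 kb, replicate 9 the narrowest Cry2 H3K4me3 peak at 8.8 kb and replicate 10 the narrowest Nr1d2 H3K4me3 peak at 7.4 kb.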

How the results depend on the processing

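The count of genes called, over all genes and among the clock genes, stayed within 1.5 times its value in every alternative run for reads, widths and peak calls at the TSS and reads in the body, apart from the values that follow; the cause was not tested unless named. An alternative spread the reads of each peak evenly along it and took only the share within 1 kb of the TSS. The clock genes called in H3K4me3 then went from 9 to 3, where all genes called went from 10595 to 7163. Genes with a 2-fold difference went from 2291 to 1354 in H3K4me3 and from 3553 to 489 in H3K27ac. The sign changed in H3K4me3 at Arntl (-0.22), Nr1d1 (0.12) and Nr1d2 (0.68). It changed in H3K27ac at Per2 (0.042), Per3 (0.24), Cry1 (0.050), Cry2 (-0.060), Nr1d2 (0.088) and Dbp (-0.25). Reads per kb of peak gave 1318 and 998 genes with a 2-fold difference, and the medians of all genes moved to 0.41 in H3K4me3 and 0.48 in H3K27ac. On this scale the sign changed in H3K4me3 at Per1 (0.22), Cry1 (0.23), Nr1d1 (0.43), Nr1d2 (1.03) and Dbp (0.24). It changed in H3K27ac at Per1 (0.25), Per2 (0.47), Per3 (0.66), Cry1 (0.47) and Nr1d2 (0.52). Of these only Nr1d1 and Nr1d2 in H3K4me3 and Per3 and Nr1d2 in H3K27ac lay above those medians. Without the filter, which admits more genes by setting libraries without a peak to 0, 4007 and 6302 genes had a 2-fold difference at the TSS, and 5271 in place of 2761 (H3K4me3) and 6453 in place of 3461 (H3K27ac) in the body. Leaving out the 25% lowest-scoring peaks took the called H3K4me3 sites from 9464 to 4654, those of clock genes from 6 to 0, and the H3K27me3 sites of clock genes from 4 to 2, and asking for peaks over 50% of a site took the H3K27ac sites of clock genes from 3 to 5.

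Clock genes with an SD above the median of all genes went from 5 to 1 (H3K4me3 cortex), from 8 to 3 (H3K4me3 gastrocnemius) and from 5 to 3 (H3K27ac cortex) inside 1 kb, and from 8 to 4 in H3K4me3 gastrocnemius with scaling to reads in autosomal peaks. Leaving out each library in turn, an alternative chosen after seeing the data, gave 3 to 5 and 6 to 8 in H3K4me3 cortex and gastrocnemius and 3 to 5 and 5 to 7 in H3K27ac, the counts of 3 being those without cortex replicate 5 or 8 (H3K4me3) and without cortex replicate 9 (H3K27ac). Inside 1 kb 3 relations in place of 2 were called, and they were others: in gastrocnemius Dbp had r = 0.92 with Per3 (permutation p adjusted 0.00112, as high for 0.667% of genes), and its r turned to 0.82 with Clock and to 0.82 with Per2, where the median over all genes was 0.60. Scaling to reads in autosomal peaks also gave 3 called relations, with Dbp and Nr1d2 in cortex at r = 0.84. The 2 cortex and 4 gastrocnemius libraries with a run number in the name of their deposited list were left out. Then 0 relations in place of 2 were called, and Clock H3K27ac width (-0.36) was not called.

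Leaving out each library in turn gave 10400 to 10621 genes called for H3K4me3 and 9283 to 9478 for H3K27ac reads at the TSS, 6358 to 6515 and 8400 to 8541 in the body, and 10172 to 10761 and 8072 to 8627 for width, with 9 and 8 to 9 clock genes called at the TSS, and turned no call. With the title number as the replicate block in place of the animal, Dbp H3K27ac at the TSS (0.22, adjusted p = 0.112) and Per1 body H3K27ac (0.16) were not called and Clock (0.43) and Arntl (0.50) body H3K4me3 were. The title numbers pair 4 of the 9 animals, and such pairs had correlations of -0.14 to 0.11. Neither replicate block changed another call among the clock genes beyond those given here and in the report. Depth limits H3K27ac most in cortex replicate 9, and reads outside called peaks were not analysed here.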
